A study of Mus musculus with 10 samples.

Results

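Pol II peaks at lone lincRNA promoters were examined in oligodendrocytes differentiated from mouse neural stem cells (NSCs). A long intergenic noncoding RNA (lincRNA) is a transcript without a known protein product from a gene that lies between protein-coding genes. A wild-type (WT) Pol II peak was a member when it was narrower than 4000 bp, overlapped the region within 2 kb of a transcription start site (TSS) annotated as lincRNA, and overlapped no such region of a protein-coding TSS. By this rule 501 of 32280 WT Pol II peaks were members, which is 1.55% of the list. They lay at 389 of 5854 annotated lincRNA genes (6.65%), and 397 further peaks under the width limit touched a protein-coding promoter as well as a lincRNA promoter and were not members.

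Pol II transcribes lincRNA genes with the same general machinery as protein-coding genes, and many lincRNA promoters lie in DNA that is poorer in CpG dinucleotides. Some lincRNAs act in the nucleus on neighboring genes or whole chromosomes, and others are hosts from which microRNAs or small nucleolar RNAs are cut. Qki-5 is the form of the RNA-binding protein Qki that stays in the nucleus, and in ChIP-seq a peak marks DNA that was recovered with an antibody more often than in input chromatin, whether the protein touches the DNA itself or is held there by RNA or other proteins.

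The series comprised ChIP-seq of Qki-5, Pol II and Srebp2, a transcription factor for sterol genes, in WT and Qk-/- cells, with 1 library for each antibody and genotype. According to the study's methods, NSCs came from the whole brains of newborn pups that carried floxed Qk and a Nestin-driven CreERT2, Qk was deleted in culture with a tamoxifen metabolite, and differentiation was induced with thyroid hormone. The labels give an FvB/C57BL6 hybrid strain for all cells, wild type as the control genotype, passage 7 for the Pol II and Qki-5 libraries and passage 8 for Srebp2. The Pol II and Qki-5 libraries of a genotype share an input, so Pol II and Qki-5 peaks of that genotype have the same control. WT and Qk-/- cells had separate inputs, and so did the Srebp2 libraries. Comparisons of WT with Qk-/- lists and with Srebp2 lists are therefore between lists with different controls. Whether the WT cells carried the Cre or floxed alleles or received the tamoxifen metabolite is not given in the sources used here.

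The lists held 32280 WT Pol II, 12835 Qk-/- Pol II, 7539 WT Qki-5, 427 Qk-/- Qki-5, 77 WT Srebp2 and 28 Qk-/- Srebp2 peaks. The Qki-5 and Srebp2 lists used here hold fewer peaks than the study states for these antibodies, so every share with or without such a peak refers to the list used here, and places without a peak in it may be bound. The depth of the libraries is unknown, so fold enrichment over input was compared only by rank within a list, values of different lists stand side by side without a comparison of size, and absence from the shorter Qk-/- list does not show that Pol II was lost. With 1 library for each condition no test between genotypes was possible, and intervals given below cover counting error only. These intervals treat peaks as independent, also where several lie at the same gene. The labelled cell type was checked by Pol II peaks at marker promoters. Among the markers of mature oligodendrocytes reported here, Cnp had a WT Pol II peak (33.4-fold), and Mbp, Mag, Mog, Mobp, Myrf and Aspa had none in either genotype. The lineage factors Olig1 (30.7-fold) and Olig2 (25.1-fold) had peaks and Sox10 had none. The precursor genes Cspg4 (11.7-fold) and Pdgfra (3.61-fold) had peaks, the latter in WT cells only. Likewise, the NSC genes Nes (31.1-fold) and Sox2 (40.8-fold) and the astrocyte genes Gfap (20.6-fold), Aqp4 (6.74-fold) and Slc1a3 (43.7-fold) had peaks, while Aldh1l1, another astrocyte gene, had none in either genotype. No promoter of 4 neuronal or 4 microglial markers had a peak. Most of the mature oligodendrocyte markers given above were thus without a called Pol II peak, and the members are described for the cultures as labelled.

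The DNA under the strongest members with and without a Qki-5 peak is shown because it includes both promoters shared with small nuclear RNA genes and promoters rich in CpG. Other strong members were both (Epb41l4aos, CpG-rich and at a snoRNA promoter) or neither (Gm12148). Each run is 201 bp of the plus strand of GRCm38 (mm10) centered on the WT Pol II summit, with GGGCGG (the GC box) and CCAAT in capitals where they occur on either strand.
Gm28872, chr4:132269999-132270199: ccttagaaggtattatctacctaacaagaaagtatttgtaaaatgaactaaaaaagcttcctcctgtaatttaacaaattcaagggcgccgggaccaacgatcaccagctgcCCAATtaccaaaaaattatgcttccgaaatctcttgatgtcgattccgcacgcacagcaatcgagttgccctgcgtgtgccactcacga
D230017M19Rik with a Qki-5 peak, chr1:72244280-72244480: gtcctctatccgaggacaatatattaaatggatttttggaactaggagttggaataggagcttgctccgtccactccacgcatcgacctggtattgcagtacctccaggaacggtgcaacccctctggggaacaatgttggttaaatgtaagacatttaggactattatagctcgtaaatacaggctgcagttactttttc
D230017M19Rik without a Qki-5 peak, chr1:72236993-72237193: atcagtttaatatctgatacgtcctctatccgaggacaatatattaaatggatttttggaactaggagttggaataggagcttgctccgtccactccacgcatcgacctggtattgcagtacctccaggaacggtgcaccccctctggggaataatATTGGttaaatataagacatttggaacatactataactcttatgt
G730013B05Rik, chr16:50528955-50529155: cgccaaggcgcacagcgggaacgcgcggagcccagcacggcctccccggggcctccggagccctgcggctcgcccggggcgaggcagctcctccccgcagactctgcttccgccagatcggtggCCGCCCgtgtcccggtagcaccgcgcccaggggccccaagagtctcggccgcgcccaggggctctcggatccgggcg
Mir9-3hg, chr7:79500019-79500219: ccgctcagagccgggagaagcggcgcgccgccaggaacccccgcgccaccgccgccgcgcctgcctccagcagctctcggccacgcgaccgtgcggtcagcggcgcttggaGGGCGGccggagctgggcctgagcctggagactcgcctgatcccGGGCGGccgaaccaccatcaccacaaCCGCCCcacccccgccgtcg
Gm48623, chr13:54302651-54302851: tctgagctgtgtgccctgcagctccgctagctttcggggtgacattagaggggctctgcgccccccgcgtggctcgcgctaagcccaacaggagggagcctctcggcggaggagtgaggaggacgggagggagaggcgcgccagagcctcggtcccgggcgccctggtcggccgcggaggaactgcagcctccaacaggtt
The windows of Gm28872 and of both D230017M19Rik peaks had a GC content of 43.3%, 44.3% and 41.3% and no GC box. The window of G730013B05Rik was centered 2751 bp downstream of the nearest lincRNA TSS, outside the 2 kb promoter region. The windows of G730013B05Rik, Mir9-3hg and Gm48623 had 78.1%, 77.1% and 69.7% GC with 1, 3 and 0 GC boxes. Gm48623 was the next strongest member without Qki-5, with 24.2-fold in WT and 17.5-fold in Qk-/- cells. The D230017M19Rik windows shared an identical run of 118 bp, so reads inside that run fit both places equally well and the level of each peak is uncertain.

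The strongest member stood apart from the rest by its rank. The peak at Gm28872 had a WT fold enrichment of 102.4, rank 8 of 32280, and its summit lay 43 bp from the lincRNA TSS and 114 bp from the TSS of Rnu11, which encodes the U11 RNA of the minor spliceosome. It carried a Qk-/- Pol II peak of 34.3-fold (rank 192 of 12835) and the strongest Qki-5 peak of any member, 11.1-fold (rank 124 of 7539), and it had a Qk-/- Qki-5 peak of 4.99-fold as well. The following members were the D230017M19Rik peaks of 50.4-fold (rank 239) and 42.8-fold (rank 393). Their summits lay 167 and 147 bp from the TSSs of the snRNA genes Gm24497 and Gm23472. The nearest lincRNA TSS, a different one for each peak, was 359 and 628 bp away. The Qk-/- Pol II peaks at these places were 17.2-fold and 9.75-fold. At these 3 peaks Pol II at the lincRNA and at the small RNA gene cannot be told apart. Epb41l4aos had 40.8-fold with a snoRNA TSS 216 bp from the summit, and G730013B05Rik had 40.3-fold with its summit 2751 bp downstream of the lincRNA TSS. Gm37494 (35.1-fold), 4932412D23Rik (32.0-fold), 5830454E08Rik (29.3-fold), Mir9-3hg (28.2-fold) and Gm12148 (28.2-fold) completed the 10 strongest. The summit at 4932412D23Rik lay inside the protein-coding gene Zbtb20. Those at Epb41l4aos and 5830454E08Rik lay within 10 kb downstream of Epb41l4a and of Entpd3 and Rpl14. Pol II of these protein-coding genes could not be told apart there. All 10 had a Qk-/- Pol II peak, from 9.75-fold to 34.3-fold, and 8 of them had a WT Qki-5 peak, the exceptions being Mir9-3hg and the weaker D230017M19Rik peak. Over all 31615 WT Pol II peaks under the width limit, 32.6% overlapped a Qk-/- Pol II peak and 16.3% a WT Qki-5 peak, and both shares rose with WT fold. Of the 100 members with a WT fold of 10 or more, 87 had a Qk-/- Pol II peak and 47 a Qki-5 peak.

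The lincRNAs were mostly genes known only by a serial name. Of the 389, 251 had a Gm number, 79 a Rik clone name, 32 a genomic clone name and 27 another symbol. A member each was found at 285 lincRNAs, 71 had 2 and 33 had 3 or more, up to 5 at Gm26603, so members at the same gene share a locus. Of 90 symbols in 7 lists of described noncoding RNAs, 40 were annotated as lincRNA, of which 16 had a member, 2 had a peak over the width limit, 2 shared a peak with a protein-coding promoter and 20 had no WT Pol II peak. A Qk-/- Pol II peak was present at 14 of the 16 and a WT Qki-5 peak at 6. At 10-fold or more lay 14 of the 16, of which 13 had a Qk-/- Pol II peak (92.9%) and 5 a Qki-5 peak (35.7%), beside 87.0% and 47.0% of all members that strong.

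The X-inactivation genes Xist, Jpx and Ftx had members above 13-fold. Xist, whose RNA coats the inactive X chromosome, had 22.3-fold in WT and 9.10-fold in Qk-/- cells, with the summit 76 bp from its TSS. Jpx, an activator of Xist, had 21.6-fold and 13.7-fold, and Ftx, another noncoding gene of the same center, had 13.2-fold and 11.0-fold. None of these 3 had a Qki-5 peak, and neither had the other X-chromosome members (0 of 11, exact 95% interval up to 28.5%). The interval holds the 16.3% of all peaks under the width limit and the 20.2% of all members, so a lower share on the X chromosome was not detectable at this number. Of the 11, 5 (45.5%, 16.7 to 76.6) had a Qk-/- Pol II peak. That interval holds the 32.6% of all peaks under the width limit and the 28.5% of all members. The imprinted genes Meg3 and H19 had no WT Pol II peak.

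Among the microRNA hosts, Mir9-3hg had 28.2-fold in WT and 20.03-fold in Qk-/- cells with the summit 2 bp from its TSS. Mir155hg had 17.7-fold and 14.9-fold, and Mir17hg, the host of a growth-promoting cluster, had 15.2-fold and 11.7-fold together with the only Qki-5 peak among the hosts (7.55-fold). The summit at Mir17hg lay 790 bp upstream of the TSS and 1582 bp from the start of Mir17. The mature products are shown, from RefSeq on GRCm38.p6 with the seed (bases 2 to 8) in capitals, because they are what these promoters could yield.
miR-9-5p: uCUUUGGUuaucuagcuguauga
miR-17-5p: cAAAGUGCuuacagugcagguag
miR-20a-5p: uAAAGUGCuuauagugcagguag
miR-19a-3p: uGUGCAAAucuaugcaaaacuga
miR-19b-3p: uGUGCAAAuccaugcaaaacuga
miR-92a-3p: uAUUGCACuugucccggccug
miR-155-5p: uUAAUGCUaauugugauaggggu
The seed AAAGUGC is shared by miR-17-5p and miR-20a-5p and the seed GUGCAAA by miR-19a-3p and miR-19b-3p, all from the Mir17hg cluster. No RNA was measured in these libraries. Mir124a-1hg and Mir124-2hg, hosts of a neuronal microRNA, and Mir142hg, a host active in blood cells, had no WT Pol II peak.

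Of the small nucleolar RNA hosts, Snhg6 had 16.9-fold in WT and 17.7-fold in Qk-/- cells, and Snhg20 had 9.71-fold and 11.7-fold. Both had a Qki-5 peak (4.36-fold and 4.98-fold). Snhg12 had 12.4-fold at its TSS and 5.87-fold 1187 bp downstream in WT cells, with no Qk-/- Pol II peak at either and no Qki-5 peak.

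Of 13 symbols in the growth, stress and p53 list 6 were annotated as lincRNA, and each of these had a Pol II peak in both genotypes. Their strongest members were all at 10-fold or more, where 87.0% of all members had a Qk-/- Pol II peak. At Epb41l4aos and at Lncpint, 1 of 3 members had one. Lockd, downstream of the cell-cycle inhibitor gene Cdkn1b, had 25.4-fold in WT and 9.997-fold in Qk-/- cells, with a Qki-5 peak of 4.54-fold. Trp53cor1, the lincRNA-p21 gene beside Cdkn1a, had 13.5-fold and 8.46-fold with a Qki-5 peak of 7.30-fold, and a weaker member of 4.05-fold in WT alone. The remaining genes of the list other than Epb41l4aos had no Qki-5 peak. These were 2900097C17Rik (14.4-fold and 9.12-fold), Pvt1 in the Myc region (12.7-fold and 5.28-fold) and Lncpint, a p53 target (11.0-fold and 6.59-fold at its strongest of 3 members). Of 15 symbols in the neural list 4 were annotated as lincRNA, so the others could not have a member. Of these 4 only Pantr1, which lies beside the neural factor gene Pou3f3, had a member. It had 3.61-fold in WT, no Qk-/- Pol II peak and no Qki-5 peak. The peak at Otx2os1 was shared with a protein-coding promoter. Rmst, Hotair, Hottip and Miat had no WT Pol II peak.

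**Figure D1:**
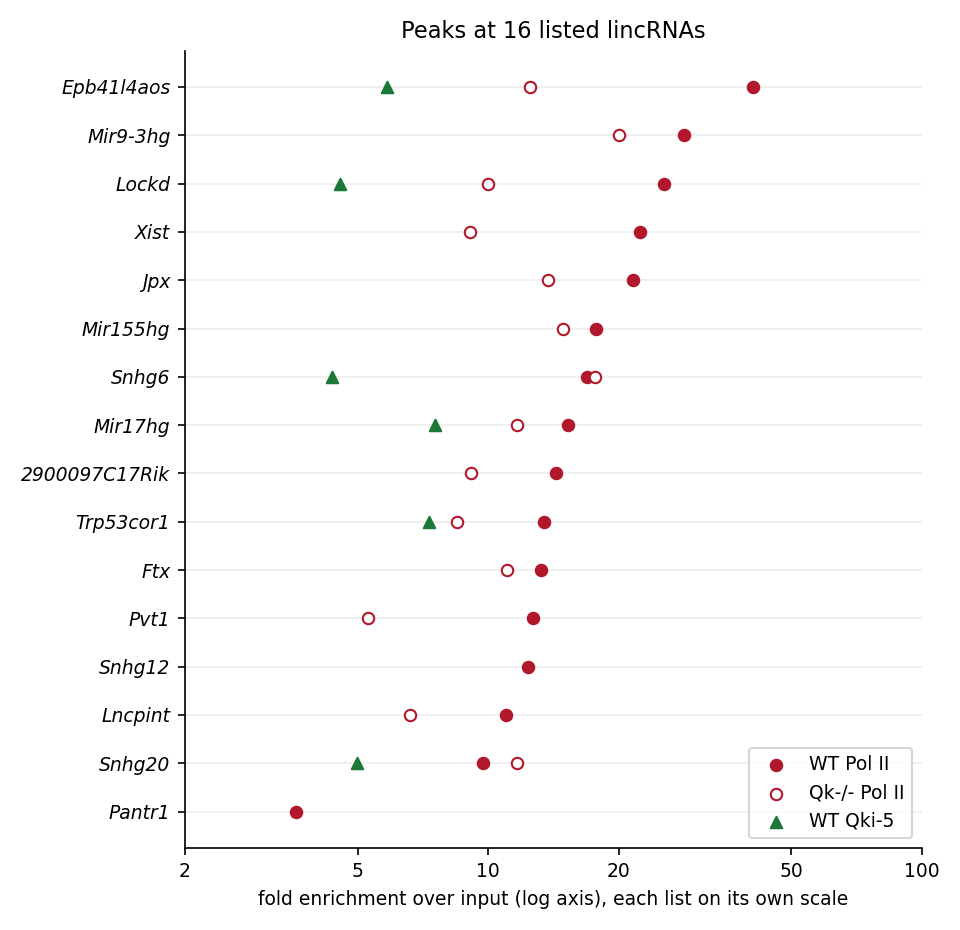
Fold enrichment over input (log axis) of the strongest member at each of 16 listed lincRNAs, with filled circles for WT Pol II, open circles for Qk-/- Pol II and triangles for WT Qki-5. Snhg12 and Pantr1 have no open circle, and 6 genes carry a triangle. Symbols of different lists are not on a common scale because depth is unknown.

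The median Pol II fold enrichment of the members lay below that of peaks at protein-coding promoters and above that of peaks outside promoters. Their WT fold enrichment ranged from 1.37 to 102.4 with a median of 5.29, and the median percentile among all WT Pol II peaks was 52.0 (95% interval of the median 48.0 to 55.4). The medians were 11.4-fold and percentile 75.6 for 13189 peaks under the width limit that touched protein-coding but no lincRNA promoters, 4.81-fold and percentile 43.5 for 1406 peaks at other promoters, and 4.25-fold and percentile 31.9 for 16122 peaks outside promoters. A fold enrichment under 5 was found for 227 members (45.3%), 5 to 10 for 174 (34.7%), 10 to 20 for 77 (15.4%) and 20 or more for 23 (4.59%). Of the protein-coding promoter peaks, 23.5% reached 20. The 10% of the list with the highest fold held 21 members.

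**Figure D2:**
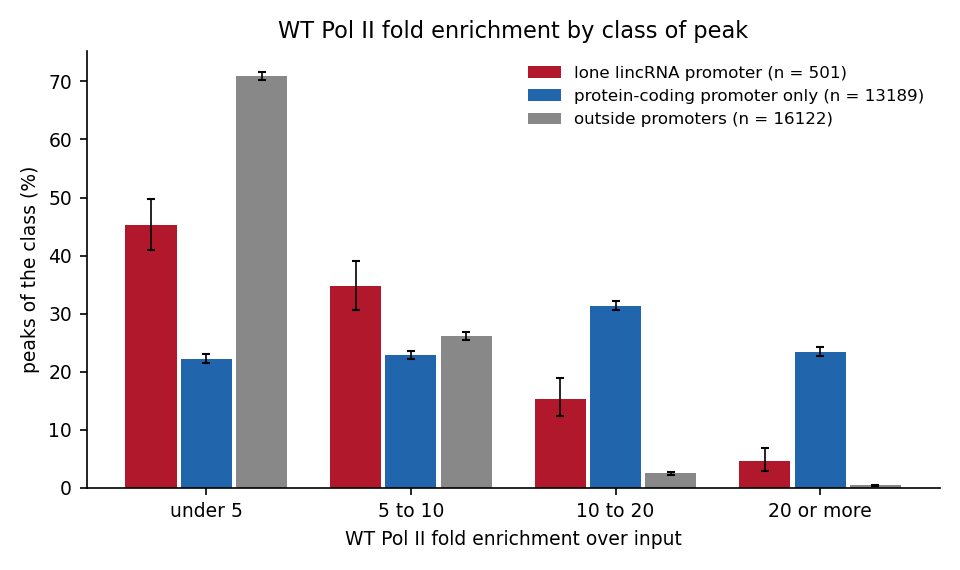
Share of peaks (percent of each class, axis from 0) by WT Pol II fold enrichment for 501 lone lincRNA promoter peaks, 13189 protein-coding promoter peaks and 16122 peaks outside promoters, with exact 95% intervals. A fold of 20 or more was reached by 4.59%, 23.5% and 0.403% of the classes.

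The members varied with the position of the summit. In 226 members the summit lay within 500 bp of a lincRNA TSS, in 240 it lay farther off but within 2000 bp, and in 35 farther still. The median fold enrichment was 6.54, 4.78 and 5.84 in these sets. A Qk-/- Pol II peak was present at 42.5% (95% interval 35.9 to 49.2), 15.8% (11.5 to 21.1) and 25.7% (12.5 to 43.3), and a WT Qki-5 peak at 25.7% (20.1 to 31.9), 15.4% (11.1 to 20.6) and 17.1% (6.56 to 33.6). In 64 members the summit lay inside a protein-coding gene and in 131 others within 10 kb downstream of such a gene, where Pol II that transcribes the protein-coding gene could not be told apart from Pol II at the lincRNA. The 306 members with neither position had a median of 5.57-fold, a Qk-/- Pol II peak at 32.7% and a Qki-5 peak at 25.8%. A small RNA promoter of any type was also touched by 39 members, with a median of 12.4-fold against 5.16-fold for the other 462. Of these 39, 25 (64.1%) had a Qk-/- Pol II peak and 14 (35.9%) a Qki-5 peak, beside 25.5% and 18.8% of the other 462. Of all members between 10- and 14-fold, 73.5% had a Qk-/- Pol II peak and 34.7% a Qki-5 peak. The annotation counts short RNA models inside Xist, Jpx, Ftx and Pvt1 among these small RNAs.

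**Figure D3:**
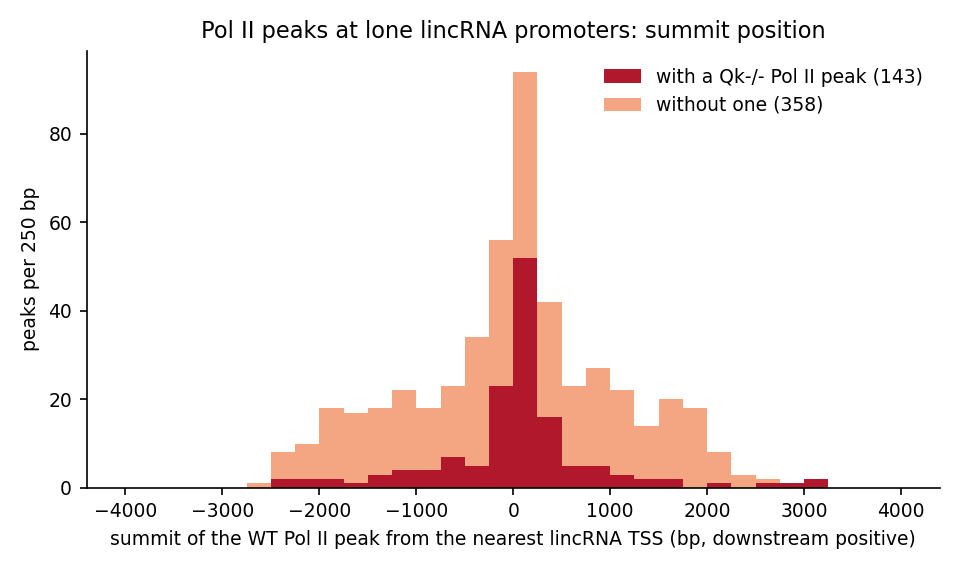
Number of members per 250 bp by the distance of the WT Pol II summit from the nearest lincRNA TSS (bp, downstream positive), with the 143 members that had a Qk-/- Pol II peak in the darker color. Within 500 bp of the TSS lay 226 summits, of which 96 had a Qk-/- Pol II peak.

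Base composition divided the members further. A CpG-rich window, with at least 50% GC and a CpG ratio of observed to expected of at least 0.6 over 301 bp at the summit, was found at 113 members (22.6%, 18.97 to 26.5), compared with 66.9% of protein-coding promoter peaks and 3.67% of peaks outside promoters. CpG-rich members had a median of 11.0-fold, a Qk-/- Pol II peak at 67.3% (57.8 to 75.8) and a Qki-5 peak at 37.2% (28.3 to 46.8). The other 388 had a median of 4.82-fold, with 17.3% (13.6 to 21.4) and 15.2% (11.8 to 19.2). On either strand of these windows, GGGCGG occurred at 25.7% of members, 55.5% of protein-coding promoter peaks and 29.1% of all peaks under the width limit. CCAAT occurred at 33.7%, 26.7% and 29.9%, TATAAA at 11.6%, 5.66% and 11.0%, and ACTAAC, the DNA form of the core that Qki binds in RNA, at 5.79%, 4.12% and 6.32%.

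A WT Qki-5 peak overlapped 101 members, 20.2% (95% interval 16.7 to 23.9), beside 16.3% of all 31615 WT Pol II peaks under the width limit. The share was 24.5% (23.8 to 25.2) at protein-coding promoters and 32.5% (27.9 to 37.3) at promoters of both kinds. It was 11.3% (9.70 to 13.1) at other promoters and 9.55% (9.10 to 10.02) outside promoters. Because the share in every class was higher in the upper than in the lower quintiles of Pol II fold enrichment, it was also taken by quintile. From the weakest to the strongest quintile it was 10.3%, 9.88%, 12.3%, 24.2% and 57.1% of members, 2.15%, 1.55%, 4.91%, 18.2% and 42.8% of protein-coding promoter peaks, and 5.41%, 6.12%, 9.08%, 23.0% and 45.1% of peaks outside promoters. In the 3 lower quintiles the intervals of members (5.06 to 18.1, 4.36 to 18.5 and 6.88 to 19.7) lay above those of protein-coding promoter peaks and overlapped those of peaks outside promoters. They also overlapped those of peaks at other promoters (1.62 to 6.08, 1.42 to 5.77 and 5.22 to 10.6). The same held for promoters of both kinds (0 to 13.2, 0 to 10.3 and 0.596 to 16.5). In the highest quintile, 32 of 56 members had a Qki-5 peak (43.2 to 70.3), an interval that overlapped those of protein-coding promoter peaks (41.5 to 44.1) and of peaks outside promoters (38.2 to 52.2). The share there was 55.3% (47.9 to 62.5) at promoters of both kinds and 45.2% (35.9 to 54.8) at other promoters.

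**Figure D4:**
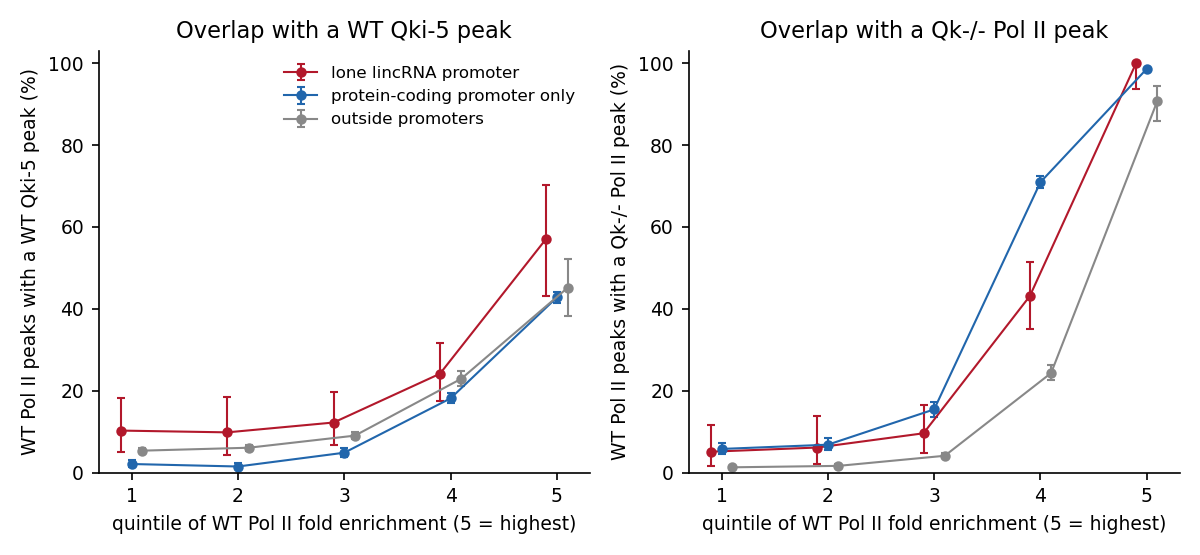
Share of WT Pol II peaks (percent) with a WT Qki-5 peak (left) or a Qk-/- Pol II peak (right) in each quintile of WT Pol II fold enrichment, by class, with exact 95% intervals. In quintile 4, 43.1% of members and 70.9% of protein-coding promoter peaks had a Qk-/- Pol II peak, and in quintile 5, 100% and 98.6%.

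The Qki-5 peaks at members overlap the Pol II peak by definition. The median distance between the summits was 150 bp (95% interval of the median 123 to 170), and 74 of 101 (73.3%) lay within 250 bp. Over all 5161 such pairs under the width limit the median was 126 bp (122 to 133), with 75.5% within 250 bp. Their fold enrichment ranged from 2.12 to 11.1 with a median of 5.56, and the median rank was 3332 of 7539. Across the 101 members the ranks of Pol II and Qki-5 fold enrichment showed no common order (Spearman's rho -0.000414, a description of peaks called against the same input). The highest Qki-5 values after Gm28872 were 9.40-fold at Gm12974, 8.64-fold at AC141633.1, 8.46-fold at AC117261.1, 8.25-fold at 1700096K18Rik, 8.23-fold at Gm23925 and at 1700031P21Rik, 8.05-fold at Gm15831, 7.82-fold at B930059L03Rik and 7.80-fold at Gm32939. Among these, AC141633.1 (5.34-fold), AC117261.1 (7.26-fold) and Gm15831 (4.97-fold) had modest WT Pol II peaks and no Qk-/- Pol II peak, and 1700096K18Rik had 26.0-fold in WT and 10.9-fold in Qk-/- cells. A Qk-/- Qki-5 peak overlapped 3 members, 0.599% (0.124 to 1.74), beside 0.402% of all peaks under the width limit, namely Gm28872 (4.99-fold), B930059L03Rik (6.58-fold) and the AY036118 and Gm42418 promoter (1.88-fold). Qk was deleted in these cells, and what was recovered with the antibody at these 3 places was not tested. The AY036118 and Gm42418 peak, which also touched the promoter of the ribosomal RNA gene CT010467.1, was the weakest of both Pol II lists (1.37-fold of 32280 peaks and 1.41-fold of 12835). No member overlapped a Srebp2 peak (0 of 501), beside 0.199% of all peaks under the width limit for the WT list and 0.0791% for the Qk-/- list, shares so low that a difference was not detectable with these short lists.

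A Qk-/- Pol II peak overlapped 143 members, 28.5% (95% interval 24.6 to 32.7), beside 32.6% of all WT Pol II peaks under the width limit, 65.2% of those at protein-coding promoters and 6.53% of those outside promoters. The share depended on WT fold enrichment. From the weakest to the strongest quintile it was 5.15%, 6.17%, 9.65%, 43.1% and 100% of members, the last being 56 of 56 (93.6 to 100), and 5.83%, 6.87%, 15.5%, 70.9% and 98.6% of protein-coding promoter peaks. In finer steps of WT fold the members lay below protein-coding promoter peaks in the middle of the range. Between 6- and 8-fold it was 20.3% (11.6 to 31.7) of 69 members and 44.8% (41.8 to 47.7) of protein-coding promoter peaks, between 8- and 10-fold 52.5% (36.1 to 68.5) and 74.1% (71.3 to 76.8), and between 10- and 14-fold 73.5% (58.9 to 85.1) and 89.0% (87.4 to 90.4). Peaks at other promoters and peaks outside promoters also had lower shares than protein-coding promoter peaks. In the same 3 steps the shares were 18.03%, 34.4% and 78.0% at other promoters and 14.9%, 34.3% and 64.6% outside promoters. In the highest of these steps the interval at other promoters (65.3 to 87.7) overlapped that of protein-coding promoter peaks.

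The shares were also taken by base composition. Among peaks that were not CpG-rich, the shares with a Qk-/- Pol II peak in the same 3 steps were 17.5% (8.75 to 29.9), 60.0% (38.7 to 78.9) and 63.0% (42.4 to 80.6) of members and 23.0% (19.3 to 27.1), 55.0% (48.5 to 61.5) and 76.9% (71.3 to 81.8) of protein-coding promoter peaks, with overlapping intervals in each step. Among CpG-rich peaks they were 33.3% (9.92 to 65.1), 40.0% (16.3 to 67.7) and 86.4% (65.1 to 97.1) of 12, 15 and 22 members, and 60.2% (56.4 to 64.0), 80.2% (77.2 to 83.0) and 91.1% (89.5 to 92.5) of protein-coding promoter peaks, with overlapping intervals in the lowest and the highest step. The part of base composition in the gap was not tested.

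Where both genotypes had a peak, the order of the members was kept in part. Spearman's rho between WT and Qk-/- fold enrichment over the 143 members was 0.66 as a description, the median distance between summits was 53 bp, and the Qk-/- fold ranged from 1.41 to 34.3 with a median of 6.86. The median percentile of these members was 77.0 in the whole WT list and 37.3 (29.0 to 46.6) in the whole Qk-/- list, which lacks most weak peaks. Among the 10312 WT peaks under the width limit that had a Qk-/- peak, ranked by each fold in turn, the members had a median percentile of 34.6 (26.7 to 39.2) by WT fold and 29.7 (21.7 to 39.6) by Qk-/- fold, and 74 of 143 (51.7%) had the higher percentile in Qk-/- cells. For protein-coding promoter peaks the medians were 54.7 and 54.8, with 50.5% higher in Qk-/- cells. After Gm28872, the highest Qk-/- fold values were 21.3 at 2610035D17Rik and at Gm37494 and 21.1 at Gm11205, against 18.04, 35.1 and 23.3 in WT cells. Of the 143 members, 56 also had a WT Qki-5 peak. A Qk-/- Pol II peak was present at 55.4% (45.2 to 65.3) of the 101 members with Qki-5, whose median WT Pol II fold was 9.12, and at 21.8% (17.8 to 26.1) of the 400 without, whose median was 4.90.

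**Figure D5:**
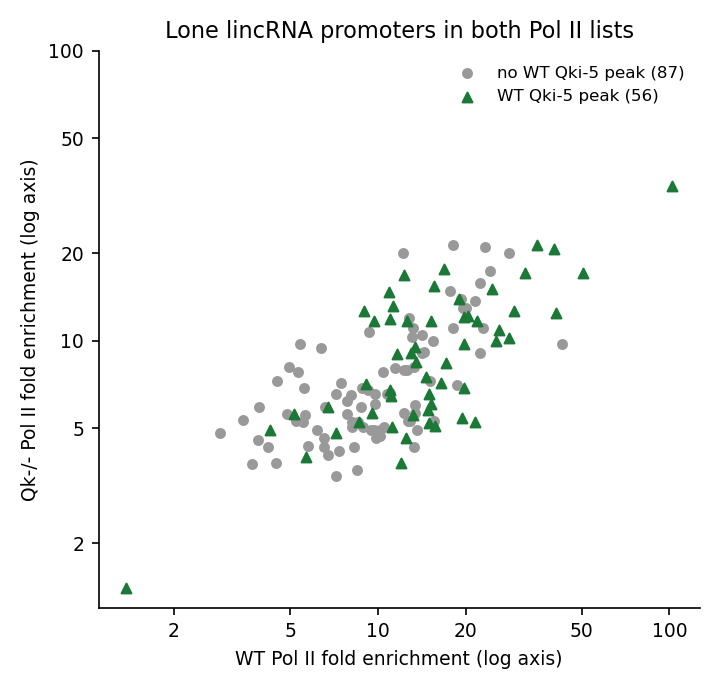
WT against Qk-/- Pol II fold enrichment (both log axes) for the 143 lone lincRNA promoter peaks found in both lists, with triangles for the 56 that had a WT Qki-5 peak and circles for the 87 that had none. Spearman's rho over all points is 0.66, and the point at the upper right is Gm28872 (102.4-fold and 34.3-fold).

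The members without a Qk-/- Pol II peak numbered 358 and had a median of 4.58-fold. Those with the highest WT fold were Gm38399 (13.3-fold), 4930580E04Rik (12.6-fold), Snhg12 (12.4-fold), B230311B06Rik (12.1-fold) and Gm12746 (11.5-fold), of which 4930580E04Rik (5.31-fold) and Gm12746 (6.44-fold) had a WT Qki-5 peak. No member above 13.3-fold lacked a Qk-/- peak. When the same rule was applied to the Qk-/- list, 178 of 12835 peaks (1.39%) lay at lone lincRNA promoters. Of these, 2 overlapped no WT Pol II peak, at AC132452.2 (5.25-fold) and Gm49539 (4.05-fold). The WT list is the longer, and the share without a WT peak was not taken over the whole Qk-/- list. The count of 2 is therefore not a result about lincRNA promoters.

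The width limit kept 12 lone lincRNA peaks out of the set. They included the nuclear RNAs Malat1, with 85.0-fold in WT (rank 28), 60.9-fold in Qk-/- cells and a Qki-5 peak of 12.8-fold, and Neat1, which scaffolds paraspeckles, with 71.1-fold, 51.8-fold and 8.99-fold. Just outside the limit was the AC091309.1 peak of 4203 bp (14.9-fold), and just inside were Gm29561 at 3727 bp (7.79-fold), AI849053 and Gm3764 at 3560 bp (9.69-fold) and 1810012K08Rik and Tmem250-ps at 3509 bp (12.5-fold). The member closest to a protein-coding TSS was Gm28151, 2274 bp from that of Slc39a10.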

How the data were processed

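ChIP-seq peak lists of 6 libraries were used, and input libraries were not analysed here. According to the study's methods, reads were trimmed with Trim Galore, aligned to mm10 with Bowtie2, cleared of duplicates with SAMtools and called against input with MACS2 at a q-value of 0.05, while the notes of the submitters list MACS2 2.1.2, Bowtie 1.2.2 and bcl2fastq. Multi-mapping reads and the read filter are not given in the sources used here, which bears on repeated genes. The fold enrichment ratio, the −log10 p and −log10 q and the score deposited by the authors are MACS2 output for each library, and read totals are not part of them. Depth and the precision it gives are therefore unknown.

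Python 3.11.15 was used with numpy 2.4.6, pandas 2.3.3, scipy 1.17.1, matplotlib 3.10.9 and pysam 0.24.0, beside samtools 1.23.1. Promoters reached 2000 bp to each side of a TSS in the basic set of GENCODE M21, and an overlap was at least 1 bp. Where several peaks overlapped a member, the strongest gave its value. Shares carry exact Clopper-Pearson 95% intervals and medians carry binomial order-statistic intervals. Percentiles and ranks refer to the whole list, and quintiles of fold to the 31615 WT Pol II peaks under 4000 bp. No p-value was computed. The calculations were tested on simulated data. Some marker results are not reported here. RefSeq promoters matched 155 of the 389 lincRNAs by symbol.

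Named lincRNAs were those of 7 hand-written lists, the 10 members with the highest WT Pol II and WT Qki-5 fold, the 5 strongest without a Qk-/- Pol II peak, members with a Qk-/- Qki-5 peak, and members at the width limit. Others that are named (Gm26603, Gm11205, 2610035D17Rik, Gm28151, AC132452.2 and Gm49539) were chosen after their values were seen. Members and lists were chosen with earlier results of these data known. Alternatives were other promoter windows, position rules, width and fold limits, a stricter q-value, all transcripts, other overlap rules and ranks by −log10 q.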

Additional observations from a re-analysis of the deposited data

How the results depend on the processing

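Of 55 recalculated values 42 stayed within the 95% interval of the main value or, for the number of members, within 1.5 times of it. A fold enrichment of at least 5 left 274 members, with a Qki-5 peak at 29.6%, a Qk-/- Pol II peak at 47.8% and a median percentile of 39.4 among the peaks kept. Promoters within 1 kb gave a median percentile of 56.6 and a Qk-/- Pol II peak at 35.0%. Chosen after seeing the data were the following. Members with the summit within 500 bp of a lincRNA TSS numbered 226, with a Qki-5 peak at 25.7%, a Qk-/- Pol II peak at 42.5% and a median percentile of 62.3. The strongest member of each lincRNA gave 26.5%, 36.2% and 59.8. Leaving out members at small RNA promoters moved none of the 5 results past these bounds. The median Qk-/- percentile stayed within its interval under all 11 of its alternatives, between 34.3 and 40.7. No paired analysis was possible because each antibody and genotype had 1 library. Leaving out a replicate was not possible for the same reason.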
